A study of Arabidopsis thaliana with 4 samples.

Results

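Root hair genes and extensins were compared between wild type and NFYA5-overexpressing Arabidopsis thaliana seedlings, and none of those tested passed an adjusted p of 0.05. They were 34 loci, taken as root-hair-specific genes, root hair expansins and extensins, with class III peroxidases left out. A locus was measured where the probe annotation of the array gave a probe set that named this gene alone, which held for 9 of the 34, out of 13333 genes named in this way. Each of the 9 had 1 probe set. The other 25, among them LRX1, LRX2, PRP1, PRP3, SHV2, XTH14 and most of the root-hair-specific (RHS) series, were not analysed here.

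The study measured transcripts of whole seedlings on 4 Affymetrix arrays, 2 of wild type and 2 titled as Col-0 plants that overexpress At1g54160. That locus encodes NFYA5, the A subunit of the nuclear factor Y complex, whose DNA target is the CCAAT box, and the series title links it to drought resistance. Seedlings of all groups were 2 weeks old and untreated, and had grown on MS agar with 3% sucrose at 22 °C, with days of 16 h and nights of 8 h. The design text calls the second group an nfya5 mutant instead; the titles were followed, with 0 probe sets listed for NFYA5 to check them. The promoter of the transgene, the number of lines and the number of plants per array are not given in the sources used here. Since the labels do not say whether the replicates were grown apart, the p-values cover just the spread of these arrays, which could be technical.

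Root hairs are tubular outgrowths of single epidermal cells of the root, which take up water and nutrients and grow at the tip. Growth at the tip needs a wall that is loosened and rebuilt at once. Expansins loosen the bonds between wall polysaccharides, endoglucanases cut glucan chains, and extensins, rod-like glycoproteins rich in hydroxyproline, form a network in the wall that peroxidases can cross-link. In whole seedlings root hair cells are a small part of the tissue, and fewer such cells cannot be told apart from less RNA per cell.

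The deposited values are MAS5 signals in arbitrary units, each array scaled to a target of 500. A probe set was tested where its mean signal over the 4 arrays was at least 100, which held for 13961 probe sets and for 7 of the 9 genes. Fold changes are overexpressor over wild type on the log2(signal + 50) scale, where the added 50 makes changes of dim probe sets look smaller, from limma's moderated test with Benjamini-Hochberg adjustment over all tested probe sets. Each value with ± after a signal is a mean and SD of 2 arrays, and each with ± after a log2 fold change is an SE.

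The expansin genes gave unlike values. EXPA7, an alpha-expansin of root hair cells, read 185.2 and 240.6 on the wild type arrays against 245.6 and 220.5 on the overexpressor arrays. The groups overlapped, since 1 wild type array lay below both overexpressor arrays and the other lay between them. Its means were 212.9 ± 39.2 and 233.05 ± 17.7 (SD, n = 2), and its log2 fold change was 0.11 ± 0.15 with a 95% interval from -0.23 to 0.45 (adjusted p = 0.77). EXPA18, the other root hair expansin, read 169.7 and 224.6 on the wild type arrays against 130.5 and 151.3 on the overexpressor arrays. Both overexpressor arrays were below both wild type arrays, but the wild type arrays differed from each other almost as much as the groups did. The means of EXPA18 were 197.15 ± 38.8 and 140.9 ± 14.7 (SD, n = 2), 1.40 times as high in wild type. Its log2 fold change was -0.37 ± 0.17, with an interval from -0.74 to 0.01 that includes 0 (adjusted p = 0.31). Leaving out wild type replicate 1 gave -0.53, and leaving out wild type replicate 2 gave -0.20.

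GH9C1, which encodes an endoglucanase of glycosyl hydrolase family 9 active in root hairs, had the lowest fold change among the tested root hair genes. It read 176.4 and 162.6 on the wild type arrays against 86.2 and 129.7 on the overexpressor arrays, so that the groups did not overlap. The overexpressor arrays lay further apart than the wild type arrays. Its means were 169.5 ± 9.76 and 107.95 ± 30.8 (SD, n = 2), 1.57 times as high in wild type. The log2 fold change was -0.49 ± 0.18, with an interval from -0.89 to -0.09, and did not pass after adjustment (unadjusted p = 0.022, adjusted p = 0.21). Without overexpressor replicate 1, the lower of the overexpressor arrays, the log2 fold change was -0.29, with 1 overexpressor array left.

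**Figure D1:**
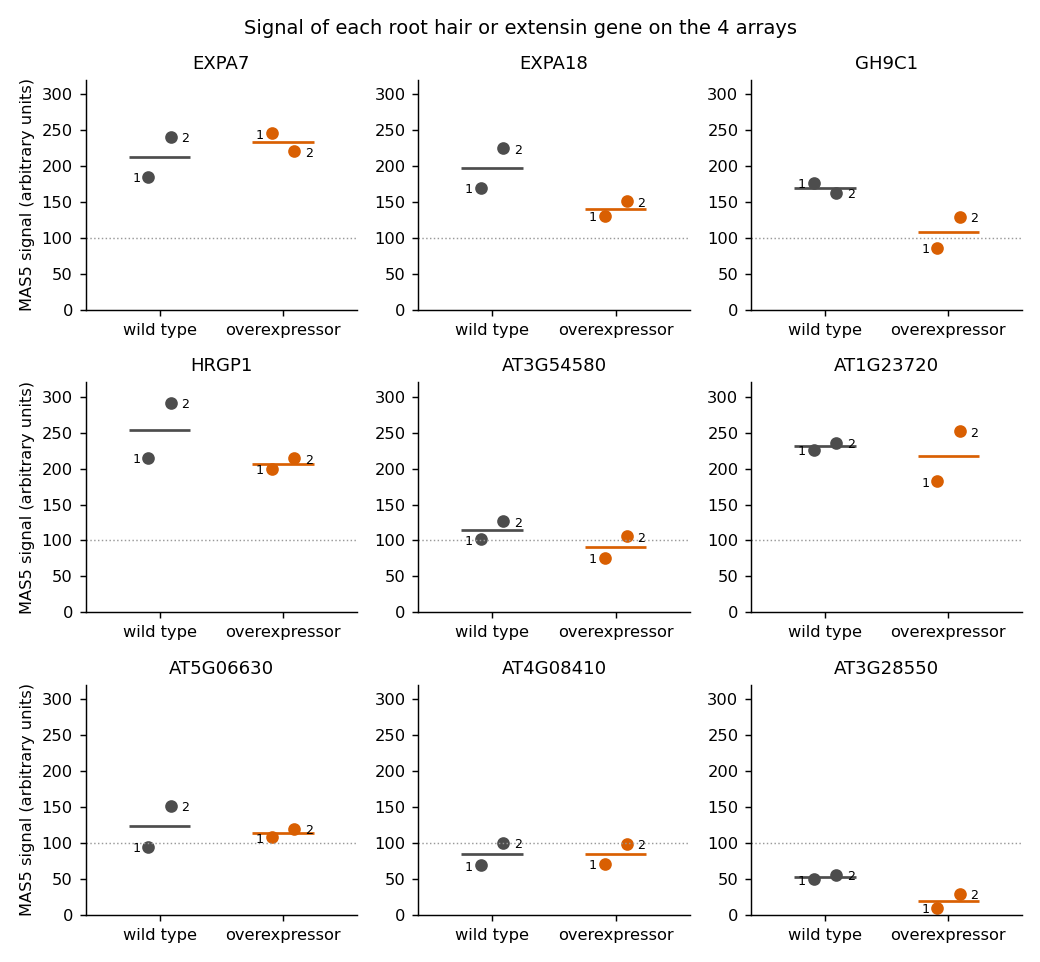
MAS5 signal in arbitrary units (vertical axis, from 0 to 320) of the 9 measured genes on each array. Points are arrays labelled with their replicate number, bars are group means, and the dotted line marks the mean signal of 100 needed for the test. Wild type and overexpressor points are separate for EXPA18, GH9C1 and AT3G28550, nearly touch for HRGP1, and overlap for the other 5.

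Of the extensin genes 6 had a probe set and 4 of these were tested. HRGP1 (AT3G54590), which encodes a hydroxyproline-rich glycoprotein, read 215.0 and 291.4 on the wild type arrays against 199.3 and 214.3 on the overexpressor arrays. The groups were separate by less than 1 unit of signal, with wild type replicate 1 next to overexpressor replicate 2. Its means were 253.2 ± 54.0 and 206.8 ± 10.6 (SD, n = 2), and its log2 fold change was -0.23 ± 0.16 with an interval from -0.58 to 0.12 (adjusted p = 0.52). Without wild type replicate 1 it was -0.41, and without wild type replicate 2 it was -0.046. AT3G54580, its neighbour on the chromosome, read 101.6 and 126.5 on the wild type arrays against 75.6 and 106.1 on the overexpressor arrays. Here the groups overlapped. Its log2 fold change was -0.22 ± 0.19 (interval -0.65 to 0.20, adjusted p = 0.62), and with an overexpressor mean of 90.85 it passed the signal minimum through the wild type arrays. Leaving out 1 array moved it to -0.067 (overexpressor replicate 1), -0.38 (overexpressor replicate 2) or -0.11 (wild type replicate 2).

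AT1G23720 had the most even wild type arrays among the extensins with a tested probe set, at 226.4 and 236.0, against 182.0 and 251.8 on the overexpressor arrays. The overexpressor arrays enclosed both wild type arrays. Its log2 fold change was -0.09 ± 0.16 (interval -0.44 to 0.26, adjusted p = 0.83). AT5G06630 showed the reverse arrangement, with 94.8 and 151.6 in wild type enclosing 107.7 and 119.9 on the overexpressor arrays. Its log2 fold change was -0.06 ± 0.20 (interval -0.50 to 0.37, adjusted p = 0.91). The median over the 4 tested extensins was -0.16, and 0 of them had an unadjusted p under 0.05 in limma's test.

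The remaining extensins were too dim for the test. AT3G28550 read 49.5 and 55.8 on the wild type arrays against 9.9 and 29.6 on the overexpressor arrays. All 4 arrays were below the minimum, and both overexpressor arrays were below both wild type arrays. Its difference was -0.57 on the log2(signal + 50) scale, and when all probe sets were tested without a minimum it did not pass (unadjusted p = 0.022, adjusted p = 0.34). AT4G08410 read 69.2 and 100.3 on the wild type arrays against 71.0 and 98.7 on the overexpressor arrays, a difference of 0.0031 on the log2(signal + 50) scale between groups whose own arrays lay 0.33 and 0.30 apart on the same scale.

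The extensin values may not be independent of each other. Extensin genes are built from near-identical repeats, and the probe sets of HRGP1, AT1G23720, AT5G06630 and AT4G08410 carry the suffix _x_at, which marks probes that can also match related sequences. HRGP1 and AT3G54580 lie next to each other in the TAIR10.1 gene table, as do AT5G06630 and EXT10, 1 of the 25 that were not analysed here. A further probe set named both AT4G08410 and its near neighbour AT4G08400 and was not used. How much of each signal came from related transcripts was not measured.

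Set against the whole array, 0 of the 7 tested genes passed an adjusted p of 0.05, where 1.29% of all tested probe sets did. By unadjusted p under 0.05, 1 of the 7 was lower (GH9C1) and 0 were higher, beside 8.08% and 8.44% of all tested probe sets, and beside 3.26% and 7.07% of those with a mean signal of 100 to 250. In all, 6 of the 7 log2 fold changes were negative, which held for 46.8% of all tested probe sets and for 40.3% of those with a mean signal of 100 to 250. Their median was -0.22, and that of all tested probe sets was 0.02. The median of -0.22 is the value of AT3G54580, among the negative ones, which passed the signal minimum through the wild type arrays. Without overexpressor replicate 1 the median of the 7 was -0.07 and without wild type replicate 2 it was -0.06, so that its size rested on those arrays.

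All 7 tested genes lay in the dim range with a mean signal of 100 to 250. In that range 17 of 3861 probe sets passed, or 0.440%, and the smallest log2 fold change to pass had a size of 0.68. The SEs of the 7 genes, from 0.15 to 0.20, were near the median of 0.17 in that range and above the median of 0.13 over all tested probe sets. The lowest bound among their 95% intervals was -0.89 for GH9C1 and the highest was 0.45 for EXPA7. With 2 arrays per group, a missed threshold does not show that a gene was equal in both groups.

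**Figure D2:**
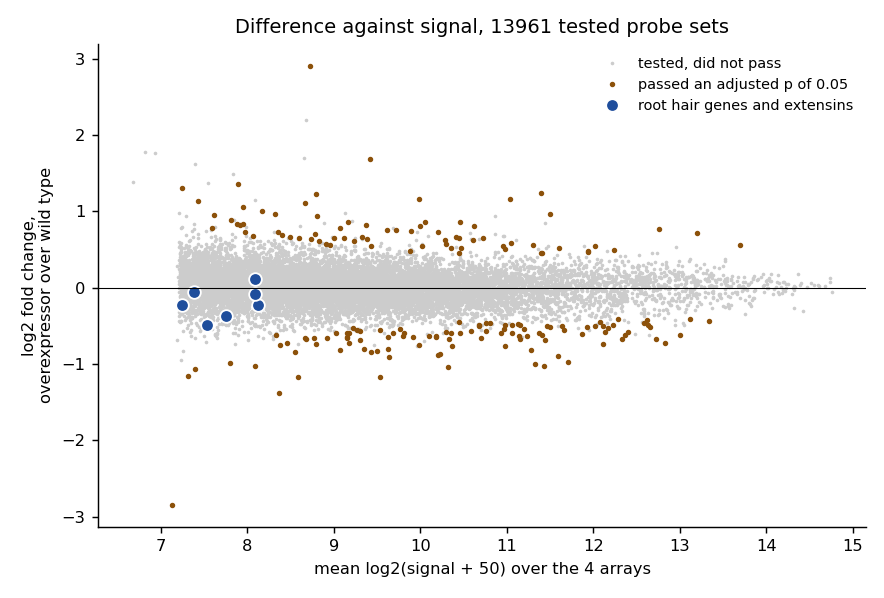
Log2 fold change (vertical axis) against the mean log2(signal + 50) of the 4 arrays (horizontal axis) for 13961 tested probe sets. Grey points did not pass, brown points passed an adjusted p of 0.05, and the 7 tested root hair genes and extensins, in blue, lie at the dim end between -0.49 and 0.11, within the grey cloud.

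Of the 9 genes with a probe set, 4 had both overexpressor arrays below both wild type arrays (EXPA18, GH9C1, HRGP1 and AT3G28550) and 0 had both above. The same held for 18.6% and 24.4% of all probe sets other than controls. Among the 7 tested, 3 were lower without overlap, beside 22.0% of all tested probe sets and 14.6% of those with a mean signal of 100 to 250, and 0 were higher without overlap, beside 26.1% of all tested probe sets. The difference between the group means was larger than both replicate gaps for 2 of the 7, EXPA18 and GH9C1, where 34.7% of all tested probe sets and 28.3% of those at 100 to 250 had such a difference. A permutation of 2 against 2 arrays gives no two-sided p below 0.333, so non-overlap alone passes no test here.

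Differences between arrays of 1 group ran in a common direction for these genes. The counts that follow include the 2 genes under the signal minimum, while the shares cover just tested probe sets. Wild type replicate 2 was above wild type replicate 1 for 8 of the 9 genes, all but GH9C1. The same held for 52.1% of all tested probe sets and for 60.8% of those with a mean signal of 100 to 250. Overexpressor replicate 2 was above overexpressor replicate 1 for 8 of the 9, all but EXPA7, beside 50.1% of all tested probe sets and 49.9% of those at 100 to 250. Overexpressor replicate 1 was the lowest of the 4 arrays for 6 of the 9 genes (23.2% of all tested probe sets, 19.3% of those at 100 to 250). Wild type replicate 2 was the highest for 6 (23.9% and 25.9%). The summed signal of the 9 genes was 1287.8 and 1589.4 in wild type and 1107.8 and 1321.9 on the overexpressor arrays, so that the sums of the groups overlapped. The part of these array differences in the group differences was not tested.

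**Figure D3:**
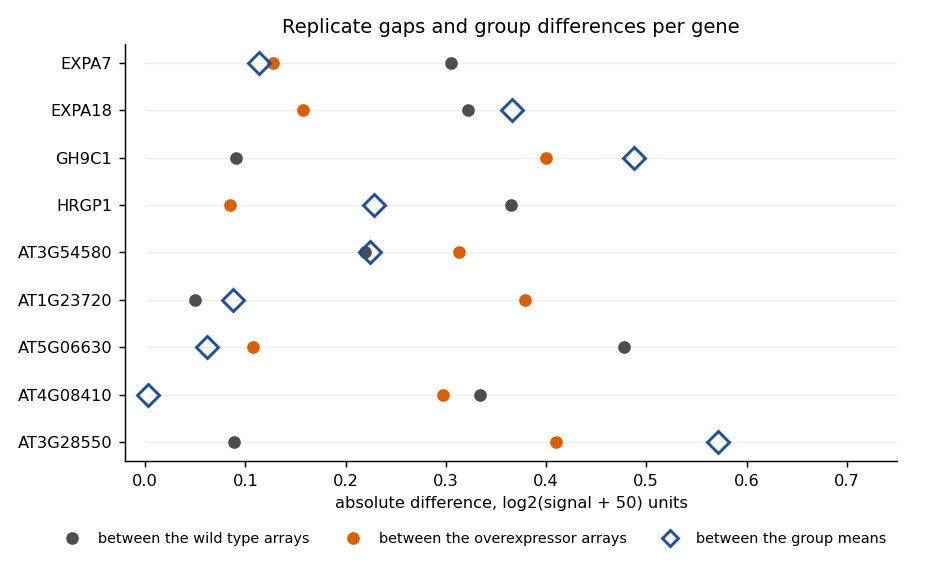
Absolute differences in log2(signal + 50) units (horizontal axis) for each of the 9 genes, between the wild type arrays (grey), between the overexpressor arrays (orange) and between the group means (open diamonds). The diamond lies to the right of both points for EXPA18, GH9C1 and AT3G28550, and at or below at least 1 of them for the other 6.

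Other genes with a part in root hair fate or growth were mostly not measured either. Of 19 regulators of hair cell fate and growth, 2 had a probe set, TRY, a small MYB protein of epidermal patterning, and AT2G14760, a bHLH factor, with signals from 4.4 to 43.2, and 0 were tested. Of 22 genes of the growth machinery, 3 were tested and 0 passed, with 2 lower at an unadjusted p under 0.05, beside 8.08% of all tested probe sets. The log2 fold changes of the 3 ran from -0.30 to -0.04. How much of their signal came from root hairs was not measured in these whole seedlings. FER, which encodes the FERONIA receptor kinase of the cell surface, read 3642 and 3671 on the wild type arrays against 2966 and 2978 on the overexpressor arrays. The arrays of each group were nearly equal and the groups were apart. Its log2 fold change was -0.29 ± 0.09 (adjusted p = 0.12). CSLD2, a cellulose-synthase-like gene needed for normal hair growth, read 1124 and 1155 on the wild type arrays against 887 and 947 on the overexpressor arrays, and its log2 fold change was -0.30 ± 0.10 (adjusted p = 0.17).

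Of 17 further extensin and leucine-rich repeat extensin genes, the latter encoding wall proteins with a leucine-rich repeat domain and an extensin tail, 13 had a probe set, 4 were tested and 0 passed. The 4 had log2 fold changes from -0.69 to -0.06 with a median of -0.46. At an unadjusted p under 0.05, 3 were lower, beside 8.08% of all tested probe sets and 3.26% of those at 100 to 250. Among these 3, 1 had a mean signal of 278 and lay above that range. The 9 that were not tested had signals from 1.4 to 123.5. Of all 13, 3 had both overexpressor arrays below both wild type arrays, 1 had both above, and 9 overlapped. The 1 with both above was under the signal minimum. Of all probe sets other than controls, 18.6% were lower and 24.4% higher without overlap. AT3G22800, a leucine-rich repeat extensin gene, read 228.9 and 238.9 on the wild type arrays against 113.7 and 167.9 with overexpression (log2 fold change -0.59 ± 0.17, adjusted p = 0.12). Without overexpressor replicate 2 it passed, with -0.79 (adjusted p = 0.022), and without overexpressor replicate 1 it had -0.38 (adjusted p = 0.49). AT2G15880, listed as PEX3, is of the same family, and the tissue its signal came from was not measured. It read 287.8 and 264.4 on the wild type arrays against 208.5 and 108.4 with overexpression (log2 fold change -0.69 ± 0.21, adjusted p = 0.13). Without overexpressor replicate 1, the higher of its overexpressor arrays, its log2 fold change was -1.04. Without overexpressor replicate 2 it was -0.33, so that its size rested on single arrays.

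Root hair class III peroxidases, which can cross-link extensins, were kept apart from the genes above. Of 10 such loci, 6 had a probe set and 4 were tested. Of these 3 passed, all lower, where 1.29% of all tested probe sets passed in either direction. AT4G26010 fell by 0.85, AT1G30870 by 0.65 and AT3G01190 by 0.60 on the log2 scale (adjusted p = 0.0090, 0.034 and 0.025). These calls were lost with no signal minimum or with a constant variance prior, and those of AT1G30870 and AT3G01190 also without wild type replicate 1. For AT1G30870 the same held without overexpressor replicate 1. The fourth tested peroxidase was also lower, with a log2 fold change of -0.56 ± 0.12, but did not pass (adjusted p = 0.052). All 4 were lower at an unadjusted p under 0.05, beside 8.08% of all tested probe sets. All 6 with a probe set had both overexpressor arrays below both wild type arrays, beside 18.6% of all probe sets other than controls. Whether the peroxidases differ in their change from the expansins and extensins was not tested.

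The markers of other tissues that could be tested gave 0 calls. Of 15 markers of root tissue outside hairs 1 had a probe set, PYK10, a beta-glucosidase abundant in roots, with 11463 and 12107 in wild type and 12419 and 13078 on the overexpressor arrays. Its log2 fold change was 0.11 ± 0.09 (adjusted p = 0.57), with both overexpressor arrays above both wild type arrays. Of 11 markers of green tissue and stomata 6 were tested, and their summed signal was 53154 and 56380 on the wild type arrays, against 51873 and 56387 with overexpression. Among them the light-harvesting gene LHCB4.3 differed by 0.47 ± 0.10 on the log2 scale (adjusted p = 0.060) and the Rubisco activase gene RCA by -0.06 ± 0.09 (adjusted p = 0.80), and 1 of the 6, LHCB4.3, was higher at an unadjusted p under 0.05, beside 8.44% of all tested probe sets. The summed signal of the green markers came mostly from the brightest of them, with mean signals up to 20541, whereas LHCB4.3 had a mean of 681.6. The 5 trichome markers had no listed probe set and were not analysed here.

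**Figure D4:**
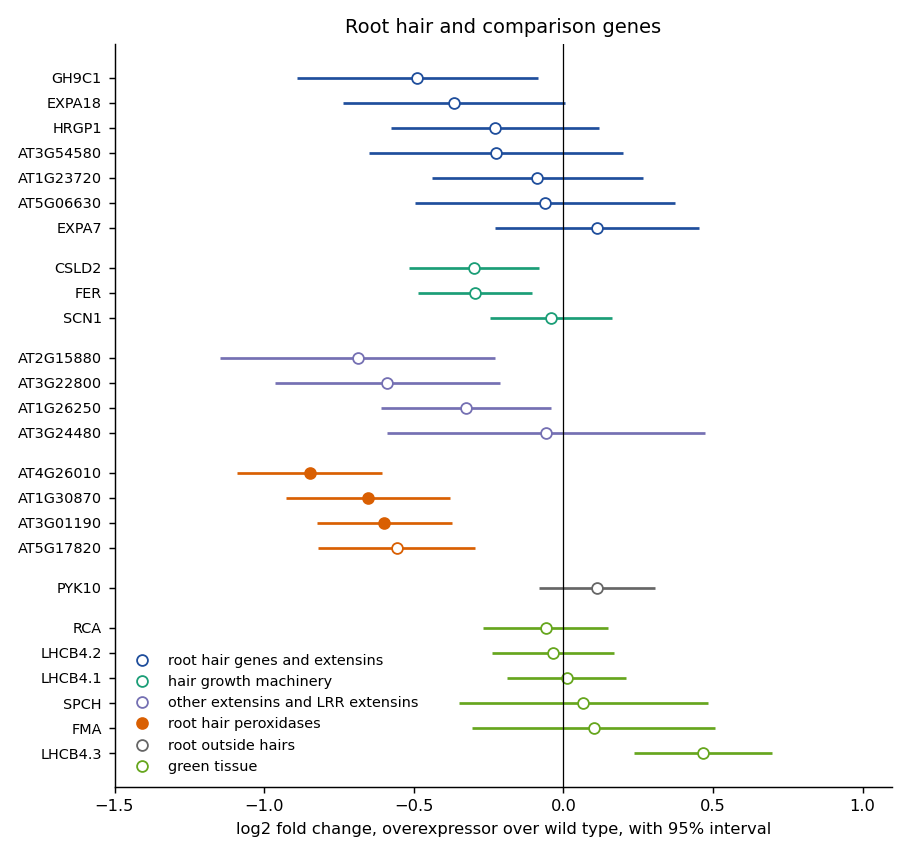
Log2 fold change of overexpressor over wild type (horizontal axis) with its 95% interval for the tested genes of each list. Filled points passed an adjusted p of 0.05, which held for 3 root hair peroxidases, and the 7 root hair genes and extensins at the top have open points, of which the interval of GH9C1 leaves out 0.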

How the data were processed

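The deposited values are linear array intensities: MAS5 signals per the submitters' processing notes, scaled per array to a target of 500 per the labels. The version of MAS5 is not given in the sources used here. Replicates were not pooled, and all 4 arrays and 0 other columns were used. The median signal was 181.4 to 194.1 per array, and the number of arrays limits the precision. Gene names came from the array's annotation table, with symbols from the TAIR10.1 gene table; the build behind the annotation is unknown, so no coordinates are given.

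After adding 50, log2 signals of the 13961 probe sets with a mean of at least 100, without the 64 control probe sets, were fitted with limma 3.58.1 in R 4.3.3 (1 group term, eBayes with an intensity trend, two-sided, threshold 0.05). The test was tried on simulated data. The genes and lists were chosen with earlier results of these data known, so no list was tested. The text names all measured root hair genes and extensins and, of each other list, those past the threshold, or the 2 of smallest p if there were none. Alternatives were pseudocounts of 1, 16 and 100, a minimum of 250 or none, quantile normalization, median centring, constant or robust priors, a replicate block, each array left out, and unshared probe sets.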

Additional observations from a re-analysis of the deposited data

How the results depend on the processing

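None of the 7 tested root hair genes and extensins (EXPA7, EXPA18, GH9C1, HRGP1, AT3G54580, AT1G23720 and AT5G06630) passed in limma's test under any alternative, and a minimum mean signal of 250 left none to test. The smallest adjusted p was 0.093, for GH9C1 with the replicate block. The median over these genes lay between -0.33 and -0.063 when 1 array was left out. Leaving out 1 array turned the sign of EXPA7 (-0.039 without wild type replicate 1, range to 0.27), AT5G06630 (0.18 without wild type replicate 2, range from -0.30), AT1G23720 (0.10 without overexpressor replicate 1, range from -0.28) and RCA (0.034 without overexpressor replicate 1, range from -0.15). Over all probe sets 180 passed, 74 higher and 106 lower. With no minimum 1 passed (0 higher, 1 lower), and with a constant prior 9 passed (6 higher, 3 lower). Leaving out 1 array gave 101 to 489 calls (44 to 238 higher, 57 to 251 lower). Replicate numbers are only numbers in the titles, and arrays of the same number deviated together with a correlation of 0.056. With the replicate number as a block 1075 probe sets passed, 525 higher and 550 lower, but 0 of those 7. Among the 1075 were FER, LHCB4.3, AT3G22800 and AT2G15880, which did not pass on all 4 arrays without the block. The cause was not tested. Counted once for each named gene and alternative, 226 results kept direction and call, 9 lost their call, 6 gained one and 4 turned. Among the named genes just the 3 peroxidases that passed had a call to lose, and all 9 losses were theirs. The 226 therefore say little about how stable a call was. A direction could not turn with another prior, the block or another minimum, since these leave the fold change as it is.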
